A study of Mus musculus with 6 samples.

Results

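The genes for DNA replication and nucleotide supply are 47 genes whose products license replication origins, unwind DNA, copy it, join the new strands and make the deoxynucleotides that copying consumes. They were chosen by gene symbol, with no threshold on their values, from the 24984 genes of the deposited count table. All 47 symbols were found in the deposited FPKM table and 46 had a row of counts, since Fen1 had none. The cells were microglia sorted from the corpus callosum of male C57BL/6J mice, 10 weeks old, in which 2 µl of 1% lysolecithin (LPC) had been injected. LPC is a detergent-like lipid that strips myelin from axons at the injection site, after which the lesion remyelinates. The day 10 group (LPC day 10, 3 libraries, 1 mouse each) was set against the day 3 group (LPC day 3, 3 libraries, 1 mouse each). The labels describe a gate on live CD11b+ Ly6G- CD3- CD45lo cells. All mice carried the lesion and no uninjured tissue was among the samples analysed here, so each value is a difference between the time points and not from the healthy state.

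In a dividing cell, the origin recognition complex with Cdc6 and Cdt1 loads the ring of Mcm2 to Mcm7 onto DNA before S phase, and Cdc45 and the GINS complex turn that ring into an active helicase. Polymerase alpha and primase start each strand, polymerases delta and epsilon extend it on the sliding clamp PCNA, and ribonucleotide reductase and thymidylate synthase supply the building blocks. Transcription of many of these genes is driven by E2F factors at the start of S phase. Microglia renew slowly in the healthy brain and divide after demyelination, so these genes are commonly read as a mark of cells in cycle.

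Library totals ran from 5890081 to 9212197 counts, and from 10416 to 16013 genes had at least 1 count. The library with the fewest of each was day 10 replicate 3, whose markers of microglia summed to 30308 CPM (counts in proportion to each library's total, scaled by TMM factors), against 7688 to 15400.0 CPM in the other 5 libraries. All 7 microglial markers (P2ry12, Tmem119, Cx3cr1, Csf1r, Sall1, Fcrls, Siglech) had counts in every library. The TMM factors were 1.46, 1.04 and 0.64 in day 10 replicates 1 to 3. They were 1.13, 1.01 and 0.91 in day 3 replicates 1 to 3. A factor below 1 raises every CPM of its library, the marker sum included. A total of 3 counts, taken as the floor of detection, stood for 0.314, 0.323 and 0.807 CPM in day 10 replicates 1 to 3 and for 0.295, 0.427 and 0.362 CPM in day 3 replicates 1 to 3. The cDNA was amplified before sequencing without molecular identifiers, so such floors cover counting error only. In sorted bulk RNA, fewer cycling cells and less of these transcripts per cell cannot be told apart.

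No member passed the test between the time points. Of the 34 members with enough counts to be tested, 0 were called at an adjusted p under 0.05 in edgeR's quasi-likelihood test, when 0.114% of the 10535 genes tested were called higher at day 10 and 0% lower. At an unadjusted p under 0.05, 1 member was higher at day 10 (Pola2) and 1 was lower (Rrm2), which is 2.94% of the members each way, against 4.76% and 1.38% of all genes tested. DESeq2 called 0.427% of all genes higher and 0.171% lower, limma-voom called 0% higher and 0.00949% lower, and both called 0 members. DESeq2 gave no p for Pola2 and no adjusted p for Gins1, Pold2, Rfc3, Rfc4 and Chaf1a, so these could not be called. At an unadjusted p under 0.05 it had 6 members (17.6%, against 8.14% of all genes): Brca1, Gins4, Mcm5, Orc1, Rpa1 and Rrm2. The log2 fold change, day 10 over day 3, was below 0 for 25 of the 34 members (73.5%), against 50.1% of all genes tested, and its median was -0.55 for the members and -0.00 for all genes. Both values rested on day 3 replicate 1: without that library, 16 of 34 members (47.1%) were below 0, against 46.3% of all genes, and the members' median was 0.32. The range of single members was wide, at -4.00 for Mcm5 to 3.99 for Pola2, and the standard errors ran past 1 log2 unit for each.

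**Figure D1:**
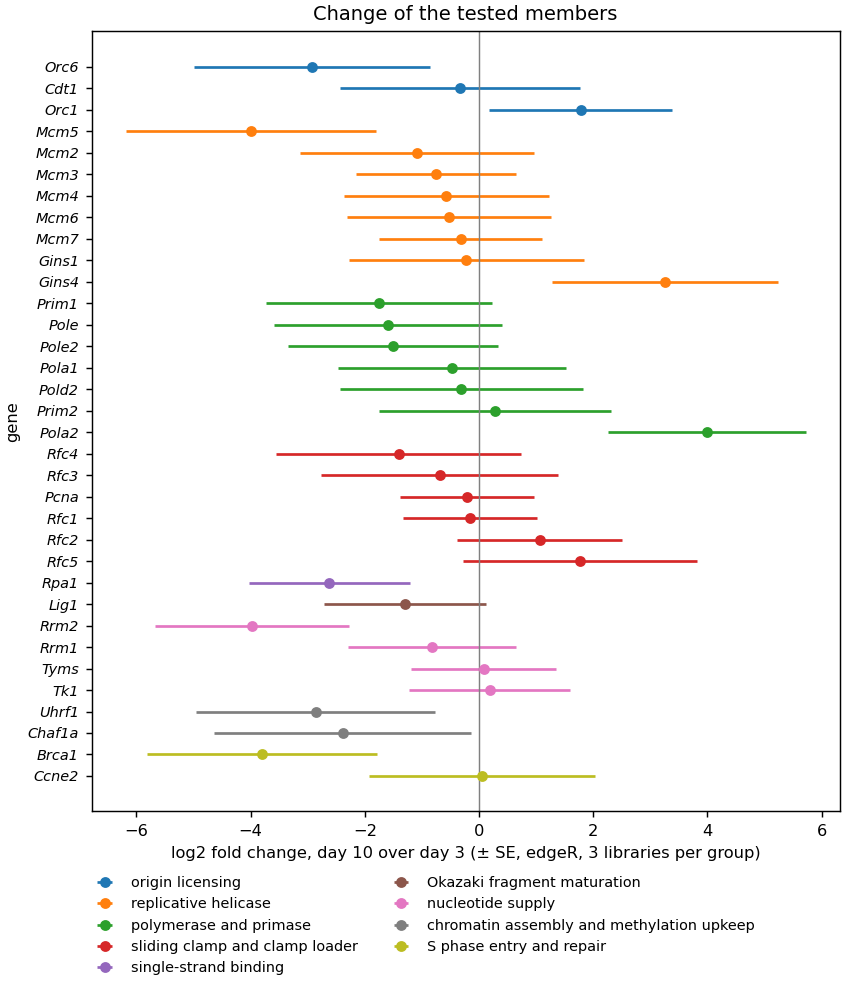
Log2 fold change, day 10 over day 3, of the 34 members tested, with bars of ± 1 SE from edgeR's quasi-likelihood fit (3 libraries per group), grouped and coloured by role. Points for 25 members lie left of 0, and 0 members passed an adjusted p of 0.05.

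The regulatory sequence upstream of the genes is shown for 4 members. Orc1 was the only member whose groups did not overlap. All its day 10 libraries lay above, as for 3.47% of all genes tested (2.94% of the members tested). Mcm5 had the lowest fold change. Mcm6 is a partner of Mcm5 in the same ring and held 3 matches to the E2F letters. Rrm2 was the member lower at day 10 at an unadjusted p under 0.05. Each is the 250 bases before the gene's start in RefSeq (GRCm38.p6), 5' to 3' on the gene's own strand. Gene positions given elsewhere in the text are from GENCODE, and the windows of Orc1 and Rrm2 run past the starts that it gives. Capitals mark E2F letters in the first 3 (Orc1 at chr4:108579204-108579453, plus strand; Mcm5 at chr8:75109259-75109508, plus strand; Mcm6 at chr1:128359706-128359955, minus strand) and a CCAAT box in Rrm2 (chr12:24708004-24708253, plus strand).
Orc1: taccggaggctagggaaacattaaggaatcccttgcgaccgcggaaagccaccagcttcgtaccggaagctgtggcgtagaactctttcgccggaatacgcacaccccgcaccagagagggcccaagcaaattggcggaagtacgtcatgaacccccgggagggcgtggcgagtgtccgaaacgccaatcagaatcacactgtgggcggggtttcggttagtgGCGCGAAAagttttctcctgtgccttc
Mcm5: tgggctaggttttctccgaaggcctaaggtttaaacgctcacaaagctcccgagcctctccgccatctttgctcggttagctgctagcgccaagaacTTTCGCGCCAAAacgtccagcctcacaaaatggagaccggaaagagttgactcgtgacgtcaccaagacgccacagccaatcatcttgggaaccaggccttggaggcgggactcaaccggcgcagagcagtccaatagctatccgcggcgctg
Mcm6: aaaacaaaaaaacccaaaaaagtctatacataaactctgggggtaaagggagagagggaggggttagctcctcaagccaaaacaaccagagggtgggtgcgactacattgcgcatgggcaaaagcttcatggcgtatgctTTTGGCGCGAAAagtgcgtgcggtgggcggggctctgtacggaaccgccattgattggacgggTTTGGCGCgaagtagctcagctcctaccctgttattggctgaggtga
Rrm2: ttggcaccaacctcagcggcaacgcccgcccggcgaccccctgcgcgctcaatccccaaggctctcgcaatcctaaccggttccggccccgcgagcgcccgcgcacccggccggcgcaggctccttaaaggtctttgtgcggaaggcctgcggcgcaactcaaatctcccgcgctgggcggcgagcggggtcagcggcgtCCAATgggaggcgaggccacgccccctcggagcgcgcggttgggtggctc

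The E2F letters searched were TTTCCCGC, TTTCGCGC, TTTGCCGC and TTTGGCGC on both strands, in windows of 250 bases before and 50 after a gene's start. The match of Orc1 began 27 bases before the RefSeq start, which lies inside the gene as GENCODE places it. Those of Mcm5 began 153 and 149 bases before it and overlap each other on opposite strands. Those of Mcm6 began 110, 106 and 47 bases before it, and the first and second of them overlap. Of the 39 members with a promoter in the RefSeq table, 14 held a match (35.9%), against 2.6% of 27025 genes. The 14 were Orc1, Cdc6, Cdt1, Mcm3, Mcm5, Mcm6, Mcm7, Gins3, Pola1, Pold1, Pole2, Rfc3, Lig1 and Uhrf1. A CCAAT box (CCAAT, both strands) stood in 24 of the 39 (61.5%), against 41.1% of all genes. In Rrm2 it began 50 bases before the start. A GC box (GGGCGG, both strands) stood in 30 of the 39 (76.9%), against 38.2% of all genes. Among members with an E2F match, 10 of the 11 tested had a log2 fold change below 0, with a median of -0.69. Among members without one it was 12 of 16, with a median of -0.95. The letters are a description of these windows and not evidence that a factor was bound there.

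**Figure D2:**
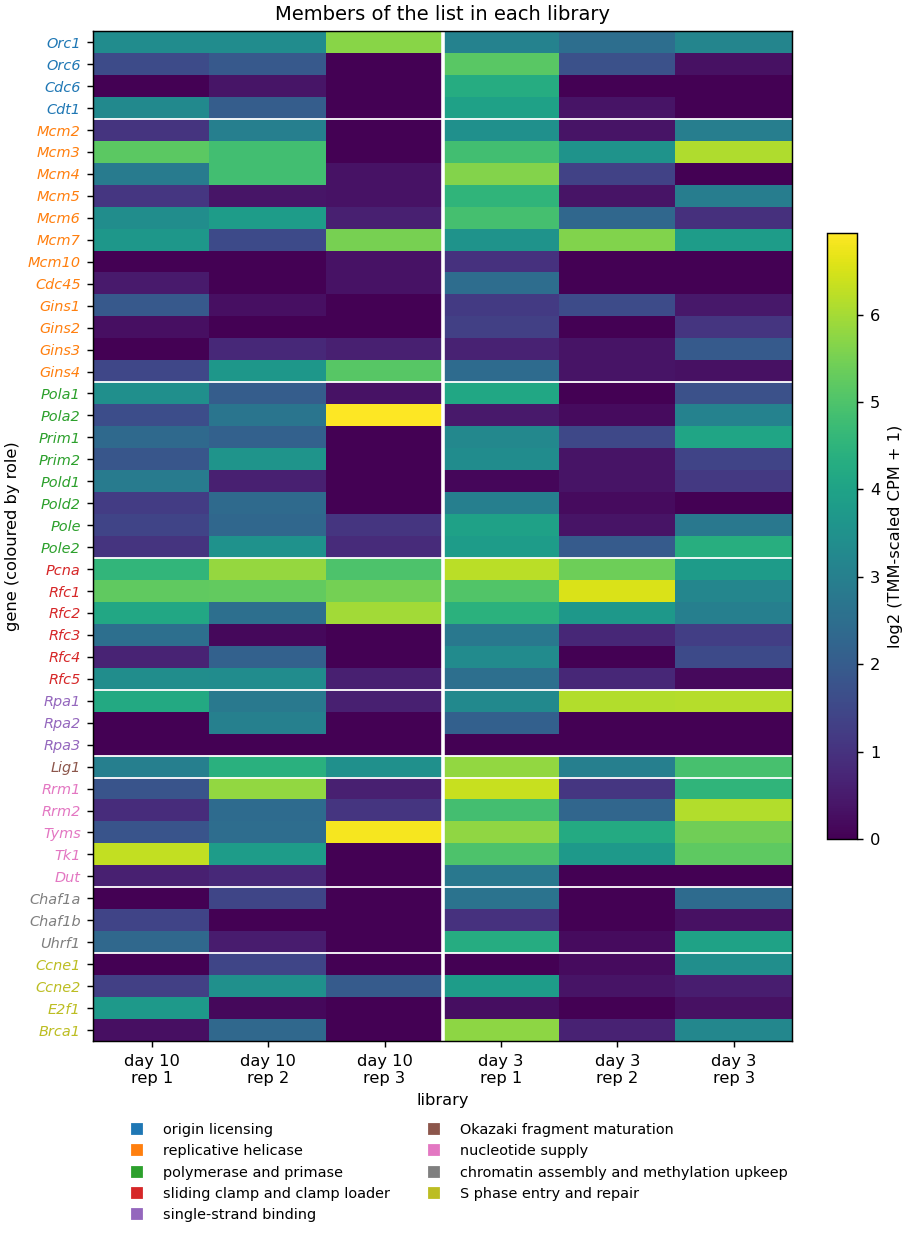
Level of each of the 46 members with counts in each library, as log2 of TMM-scaled CPM plus 1 (colour), with genes coloured by role and the day 10 libraries left of the white line. Day 10 replicate 3 is dark for most members and bright for a few, such as Pola2 at 121 CPM and Tyms at 114 CPM, and day 3 replicate 1 is bright for most.

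Libraries of the same time point differed widely in how many members they showed. The highest level of a member was in day 3 replicate 1 for 18 of the 34 members tested (52.9%), against 12.6% of all genes tested. It was in day 10 replicate 3 for 5 members (14.7%), against 25.6% of all genes. In that library 14 of the 34 had no count at all (41.2%), against 15.4% of all genes. A level of at least 2 CPM was reached by 22, 28 and 10 of the 34 members in day 10 replicates 1 to 3, against 32, 14 and 22 in day 3 replicates 1 to 3. The shares of all genes at that level were 88.7%, 89.6% and 56.1% in the day 10 libraries and 86.4%, 80.8% and 77.3% in the day 3 libraries. Thus day 3 replicate 1 held nearly the full list, while day 3 replicate 2 held fewer members than either of its partners. For 19 of the 34 members (55.9%), 1 library had at most 2 counts and another at least 100, against 27.7% of all genes. The median within-group SD of log2 (CPM + 2) was 1.16 for the members at day 10 and 1.24 at day 3, beside 1.24 at day 10 and 0.90 at day 3 for all genes tested. Groups did not overlap for 1 member with all day 10 libraries above (2.94%, against 3.47% of all genes) and for 0 members with all below (against 4.97%). With day 10 replicate 1, 2 or 3 left out, the members wholly below were 3 of 36 (8.33%, against 11.3% of all genes), 3 of 34 (8.82%, against 11.4%) and 1 of 36 (2.78%, against 7.89%). With day 3 replicate 1, 2 or 3 left out, they were 1 of 34 (2.94%, against 9.32%), 9 of 36 (25.0%, against 10.3%) and 0 of 35 (against 9.53%). The share of members thus exceeded that of all genes without day 3 replicate 2 and was below it without each of the other libraries. The 9 members without day 3 replicate 2 were Brca1, Chaf1a, Lig1, Mcm5, Pole, Pole2, Prim1, Rrm2 and Uhrf1.

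The licensing genes load the helicase at origins. Orc1, the largest subunit of the origin recognition complex (GRCm38 chr4:108579423-108614833), had 9.42, 9.26 and 50.6 CPM in the day 10 libraries, against 7.37, 4.70 and 7.96 CPM in the day 3 libraries. All 3 day 10 values lay above all 3 day 3 values, with day 10 replicates 1 and 2 close above them. Its log2 fold change was 1.78 ± 1.60 (SE; edgeR adjusted p = 0.999), and 0.46 without day 10 replicate 3. Of its exon bases, 10.8% also lie under an opposite-strand transcript. Orc6, the smallest subunit of the same complex, had 1.99, 2.80 and 0 CPM at day 10, against 34.8, 2.28 and 0.241 CPM at day 3. Only day 3 replicate 1 stood out, and the log2 fold change was -2.93 ± 2.07 (SE; edgeR adjusted p = 0.999), or 0.35 without that library. Cdt1, which brings the helicase to the origin, had a log2 fold change of -0.34, with a range of 0 to 8.69 CPM at day 10 and 0 to 14.7 CPM at day 3. Cdc6, the loading ATPase, was not tested. It had 187 counts in day 3 replicate 1, 3 counts in day 10 replicate 2 and 0 elsewhere.

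The replicative helicase genes held 12 members, of which 8 were tested and 7 of these had a log2 fold change below 0. Mcm3 had 35.2, 27.7 and 0 CPM at day 10, against 27.7, 10.8 and 67.9 CPM at day 3 (log2 fold change -0.76 ± 1.40, SE; edgeR adjusted p = 0.999). The groups overlapped, with the extremes in the third library of each. Mcm7 had 11.6, 1.94 and 44.4 CPM at day 10, against 10.8, 48.4 and 13.1 CPM at day 3 (log2 fold change -0.32 ± 1.43, SE; edgeR adjusted p = 0.999). It was high in 1 library of each group, neither of them a library in which Mcm3 was high, and 12.6% of its exon bases are shared with Ap4m1, Cops6 and microRNA genes. Gins4, a subunit of the GINS complex, had 1.78, 11.7 and 33.9 CPM at day 10, against 4.32, 0.285 and 0.241 CPM at day 3. Day 10 replicates 2 and 3 exceeded each day 3 library, and the log2 fold change was 3.26 ± 1.98 (SE; edgeR adjusted p = 0.962), beside -0.22 for Gins1, another subunit of that complex. The value for Gins4 was 5.87 without day 3 replicate 1 and 2.04 without day 10 replicate 3. Mcm10, Cdc45, Gins2 and Gins3, which act in helicase activation, had too few counts to be tested, and the highest of them was Cdc45 with 47 counts in day 3 replicate 1. Gins2 shares 67.3% of its exon bases with Gse1 on the other strand.

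The subunits of the hexamer assemble in equal numbers, and their transcripts were compared within each library per kilobase of exon. These subunits were chosen for display after their values were seen. In day 10 replicate 1 the level ran from 0.150 CPM per kb for Mcm2 to 9.37 CPM per kb for Mcm3, a ratio of 62.3 (95% interval 33.5 to 131, exact binomial on the counts). In day 10 replicate 2 it ran from 0.0809 CPM per kb for Mcm5 to 7.68 CPM per kb for Mcm4, a ratio of 94.9 (95% interval 32.1 to 463). In day 10 replicate 3, Mcm7 stood at 10.0 CPM per kb and made up 97.5% of the sum over the subunits, while Mcm2 and Mcm3 had no count. Day 3 replicate 1 was the most even of the libraries in which all subunits had counts, from 1.45 CPM per kb for Mcm2 to 13.7 CPM per kb for Mcm4, a ratio of 9.45 (95% interval 7.63 to 11.8). Day 3 replicate 2 had Mcm7 at 10.9 CPM per kb and Mcm2 at 0.0409 CPM per kb, and the ratio of 267 is known only to within a 95% interval of 73.4 to 2215, since Mcm2 had 2 counts. In day 3 replicate 3, Mcm3 stood at 18.1 CPM per kb and Mcm4 had no count, although Mcm4 had 502 counts in day 3 replicate 1. The leading subunit was thus Mcm3, Mcm4 or Mcm7 depending on the library, at both time points. With 1 library per mouse, a difference between mice cannot be told apart from one between library preparations. The lowest subunits rested on few counts, with 3 for Mcm5 in day 10 replicate 2, and the intervals cover counting error only. Whether uneven amplification of the cDNA bears on it was not tested.

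**Figure D3:**
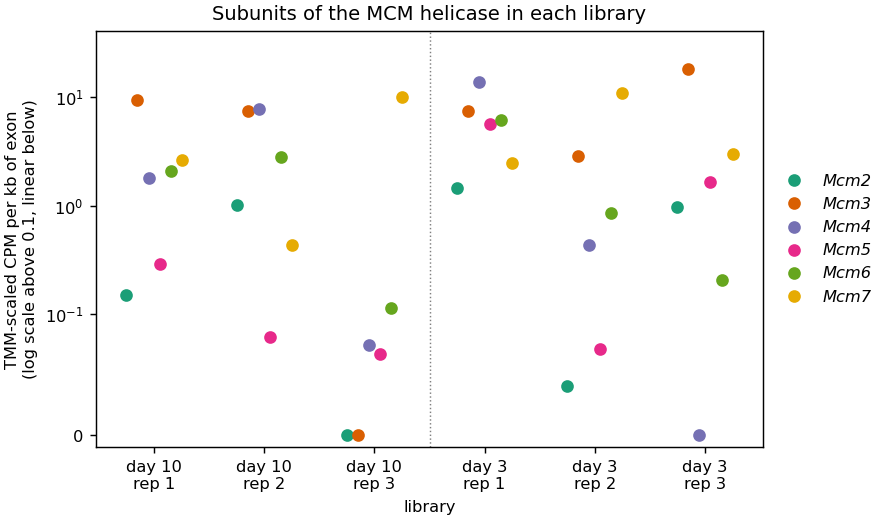
TMM-scaled CPM per kilobase of exon (log scale above 0.1, linear below) of Mcm2 to Mcm7 in each library, day 10 left of the dotted line. The subunits lie within a ratio of 9.45 in day 3 replicate 1 and are farther apart in day 3 replicate 2 (95% interval of the ratio 73.4 to 2215). A different subunit leads in different libraries.

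Subunits of the other complexes were uneven in some libraries and less so in others. In the GINS complex, the leading subunit made up 57.6%, 95.4% and 99.2% of the summed level per kilobase in day 10 replicates 1 to 3, against 69.3%, 80.6% and 61.0% in day 3 replicates 1 to 3. It was Gins4 in 3 libraries, Gins1 in 2 and Gins3 in 1. These shares rest on few counts, with 46, 118 and 128 in all in day 10 replicates 1 to 3. In day 3 replicates 1 to 3 the complex had 78, 18 and 38 counts in all. For polymerase alpha and primase, the leading share was 39.1%, 49.5% and 99.8% at day 10, against 38.6%, 88.0% and 73.7% at day 3. Pola2 led in day 10 replicate 3 and Prim1 in each day 3 library, and the 88.0% rests on 13 Prim1 counts of 16 in all. In the clamp loader, the leading share was 48.7%, 55.3% and 57.0% at day 10, against 34.6%, 87.2% and 32.6% at day 3. By this share it was the most even in day 3 replicates 1 and 3. The ratio of highest to lowest subunit gave another order. It was 52.0 (95% interval 9.01 to 2082) in day 3 replicate 3, where Rfc5 had 1 count. That ratio was 5.78 (95% interval 4.05 to 8.35) in day 3 replicate 1 and 14.9 (95% interval 6.77 to 40.9) in day 10 replicate 1. Per kilobase of exon, the ribonucleotide reductase pair had Rrm1 as the larger share in day 10 replicate 2 (76.0%). Rrm2 had the larger share in the other 5 libraries, with 92.4% in day 3 replicate 3. This order depends on the exon lengths used, 11.012 kb for Rrm1 and 2.771 kb for Rrm2. By counts, Rrm1 exceeded Rrm2 in day 3 replicate 1 (824 against 286) and in day 10 replicate 1 (24 against 8). The ratio per kilobase in day 10 replicate 1 was 1.32 (95% interval 0.514 to 3.05), so the larger partner is not resolved there. In day 10 replicate 3 the pair had 6 counts in all.

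Of the polymerase and primase genes, 7 of 8 were tested and 5 had a log2 fold change below 0. Pola2, the regulatory subunit of polymerase alpha (GRCm38 chr19:5940542-5964202, minus strand), had 2.09, 5.49 and 121 CPM at day 10, against 0.393, 0.142 and 7.48 CPM at day 3. Day 10 replicate 3 was far above the rest, and day 3 replicate 3 exceeded the other day 10 libraries, so the groups overlapped. The log2 fold change was 3.99 ± 1.73 (SE; edgeR adjusted p = 0.667). Without day 10 replicate 3 it was 0.48 (edgeR adjusted p = 1.000), and without day 3 replicate 3 it was 7.29. Pole2, the second subunit of polymerase epsilon, had 1.05, 10.5 and 0.807 CPM at day 10, against 13.3, 2.99 and 19.2 CPM at day 3 (log2 fold change -1.50 ± 1.84, SE; edgeR adjusted p = 0.999). Day 3 replicates 1 and 3 were above each day 10 library and day 3 replicate 2 was not. The value for Pole2 was -3.66 without day 10 replicate 2. Log2 fold changes of the other tested members were -1.75 for Prim1 and 0.28 for Prim2 (the primase subunits), -0.47 for Pola1 (the catalytic subunit of polymerase alpha), -1.60 for Pole (that of polymerase epsilon) and -0.31 for Pold2 (an accessory subunit of polymerase delta). Pold1, the catalytic subunit of polymerase delta, had 61 counts in day 10 replicate 1 and at most 10 in any other library.

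Pcna and Rfc1 had the smallest standard errors of the 34 members. Pcna encodes the clamp that tethers polymerases to DNA, and it had 22.7, 56.1 and 30.9 CPM at day 10, against 73.0, 41.4 and 12.9 CPM at day 3. The day 10 values lay within the range of the day 3 values, and the log2 fold change was -0.21 ± 1.17 (SE; edgeR adjusted p = 0.999). Rfc1, the large subunit of the clamp loader, had 36.7, 37.6 and 43.6 CPM at day 10, against 32.1, 91.9 and 8.08 CPM at day 3 (log2 fold change -0.16 ± 1.17, SE; edgeR adjusted p = 0.999). Its 3 day 10 libraries were close together while its day 3 libraries were not. The small loader subunits had log2 fold changes of 1.06 for Rfc2, -0.69 for Rfc3, -1.41 for Rfc4 and 1.77 for Rfc5. Between 10.7% and 15.1% of the exon bases of Rfc2, Rfc4 and Rfc5 are shared with genes on the other strand, and no source used here gives the strand of the libraries.

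By the deposited FPKM values, which divide by transcript length and so allow genes to be ranked, Pcna had the highest mean of the members over all 6 libraries, with 15.3 FPKM at day 10 and 18.7 FPKM at day 3. Mcm3 came next by that mean, with 7.03 FPKM at day 10 and 9.15 FPKM at day 3. By single time points, Pola2 (9.85 FPKM), Gins4 (8.90 FPKM) and Tk1 averaged more than Mcm3 at day 10, and Rrm2 (11.7 FPKM) did at day 3. Rfc1 averaged 6.59 FPKM at day 10 and 7.50 FPKM at day 3, and Tk1 8.02 FPKM at day 10 and 5.10 FPKM at day 3. Neighbours in this order did not separate beyond their spread, since Pcna ranged from 8.14 to 24.1 FPKM at day 10 and from 4.84 to 34.0 FPKM at day 3, and Mcm3 from 0 to 13.5 FPKM at day 10 and from 2.89 to 16.3 FPKM at day 3. At the other end, Mcm10 averaged 0.00736 FPKM at day 10 and 0.0477 FPKM at day 3, and Rpa3 and Fen1 were listed at 0 throughout. Both are used by every dividing cell, and 84.2% of the exon bases of Fen1 overlap Tmem258 and an antisense gene, so their zeros are reported as listed and not as absence.

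Rpa1, the large subunit of the single-strand binding protein, had 17.5, 6.03 and 0.538 CPM at day 10, against 8.74, 69.7 and 70.8 CPM at day 3. Day 3 replicates 2 and 3 were above each day 10 library, and day 3 replicate 1, the highest library for 18 of the 34 members, was not. The log2 fold change was -2.62 ± 1.41 (SE; edgeR adjusted p = 0.877). Rpa2, the middle subunit, was seen in day 10 replicate 2 (7.10 CPM) and day 3 replicate 1 (3.34 CPM) only. Lig1, the ligase that joins the fragments of the lagging strand, had 6.91, 20.0 and 10.2 CPM at day 10, against 55.4, 6.97 and 29.4 CPM at day 3 (log2 fold change -1.30 ± 1.42, SE; edgeR adjusted p = 0.999). Its groups overlapped through the low day 3 replicate 2, and the value was -0.54 without day 3 replicate 1.

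Among the nucleotide supply genes, Rrm2 encodes the small, S phase-bound subunit of ribonucleotide reductase (GRCm38 chr12:24708241-24714146, plus strand). It had 0.837, 4.41 and 1.08 CPM at day 10, against 28.1, 3.84 and 68.6 CPM at day 3. Day 3 replicates 1 and 3 were far above each day 10 library, and day 3 replicate 2 was just under day 10 replicate 2. The log2 fold change was -3.97 ± 1.70 (SE; edgeR adjusted p = 0.648). It stayed between -5.13 and -2.87 when any 1 library was left out. Rrm1, the large subunit, had a log2 fold change of -0.83, with a range of 0.538 to 55.4 CPM at day 10 and 1.14 to 80.9 CPM at day 3. Tyms, which makes thymidylate, had 2.51, 4.52 and 114 CPM at day 10, against 54.2, 17.8 and 42.3 CPM at day 3. Day 10 replicate 3 was the highest of the libraries and the other day 10 libraries the lowest, and the log2 fold change was 0.08 ± 1.27 (SE; edgeR adjusted p = 0.999). Without day 10 replicate 3 it was -3.46. Tk1, the thymidine kinase of dividing cells, had 77.3, 13.2 and 0 CPM at day 10, against 31.1, 12.1 and 36.2 CPM at day 3 (log2 fold change 0.19 ± 1.41, SE; edgeR adjusted p = 0.999). The day 10 libraries held both its highest and its lowest value. Dut, which clears dUTP, had 60 counts in day 3 replicate 1 and at most 7 elsewhere.

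Uhrf1 recruits the maintenance methyltransferase to newly copied DNA, and it had 4.08, 0.431 and 0 CPM at day 10, against 18.7, 0.142 and 14.8 CPM at day 3 (log2 fold change -2.86 ± 2.09, SE; edgeR adjusted p = 0.999). Chaf1a, a subunit of the histone chaperone that follows the replication fork, had 0, 1.72 and 0 CPM at day 10, against 5.21, 0 and 4.34 CPM at day 3 (log2 fold change -2.39 ± 2.25, SE; edgeR adjusted p = 0.999). For both genes day 3 replicates 1 and 3 exceeded each day 10 library and day 3 replicate 2 did not. The log2 fold change of Uhrf1 was -5.46 without day 10 replicate 1, and that of Chaf1a was -7.64 without day 10 replicate 2, its only day 10 library with a count. Chaf1a shares 52.5% of its exon bases with Ubxn6 on the other strand. Chaf1b had at most 16 counts in any library. Brca1, a repair protein whose transcription peaks with S phase, had 0.209, 4.09 and 0 CPM at day 10, against 52.8, 0.569 and 8.20 CPM at day 3. Day 3 replicate 2 lay among the day 10 values, and the log2 fold change was -3.80 ± 2.02 (SE; edgeR adjusted p = 0.863). It was -7.20 without day 10 replicate 2 and -1.58 without day 3 replicate 1. Ccne2, a cyclin E that drives S phase entry, had 1.47, 10.1 and 2.96 CPM at day 10, against 13.2, 0.285 and 0.483 CPM at day 3 (log2 fold change 0.06 ± 1.98, SE; edgeR adjusted p = 0.999). E2f1 and Ccne1, which act at the same step, were seen above 2 CPM in 1 library each: E2f1 at 12.1 CPM in day 10 replicate 1 and Ccne1 at 9.77 CPM in day 3 replicate 3.

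Summed over the 46 members with counts, the level was 339, 389 and 519 CPM at day 10, against 811, 341 and 501 CPM at day 3. The means were 416 ± 93.2 CPM at day 10 and 551 ± 239 CPM at day 3 (SD, n = 3 each), and the groups overlapped. The sum was carried by different genes in different libraries. The leading 3 members took 44.1% of the members' counts in day 10 replicate 1 (Tk1, Rfc1, Mcm3), 38.3% in day 10 replicate 2 (Pcna, Rrm1, Rfc1) and 57.0% in day 10 replicate 3 (Pola2, Tyms, Rfc2). They took 25.8% in day 3 replicate 1 (Rrm1, Pcna, Lig1), 61.7% in day 3 replicate 2 (Rfc1, Rpa1, Mcm7) and 41.4% in day 3 replicate 3 (Rpa1, Rrm2, Mcm3). The median level of the tested members was 3.45, 5.11 and 0.403 CPM at day 10, against 14.6, 1.35 and 6.82 CPM at day 3, and that of all genes tested was 17.3, 15.8 and 4.57 CPM at day 10, against 17.4, 16.5 and 16.0 CPM at day 3.

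The mitosis genes, which act after replication is complete, were read beside them. Their sum was 293, 981 and 25.8 CPM at day 10, against 1938, 398 and 2224 CPM at day 3. Day 3 replicates 1 and 3 were above each day 10 library, and day 3 replicate 2 was below day 10 replicate 2, as for Rrm2. Of 21 tested, 19 had a log2 fold change below 0, with a median of -1.82, and 0 were called by edgeR (at an unadjusted p under 0.05, 0 were higher and 3 lower, when 4.76% of all genes tested were higher and 1.38% lower). With any 1 library left out, 17 to 21 of the 20 to 22 tested were below 0, and the median ran from -3.51 (without day 10 replicate 2) to -1.33 (without day 10 replicate 3). Mki67, the widely used proliferation marker, had 123, 505 and 13.2 CPM at day 10, against 1244, 123 and 1180.0 CPM at day 3 (log2 fold change -1.99 ± 0.91, SE; edgeR adjusted p = 0.714). Birc5, the survivin of the chromosomal passenger complex, had 0.209, 0.215 and 0.538 CPM at day 10, against 7.96, 6.26 and 35.1 CPM at day 3 (log2 fold change -5.68 ± 2.19, SE; edgeR adjusted p = 0.524), and its groups did not overlap. Ube2c, the gene of smallest p among those above 0, had a log2 fold change of 0.37. Thus in day 10 replicate 3 the TMM-scaled sum of replication members was the highest of its group while that of mitosis genes was the lowest of all 6 libraries. The first of these ranks depends on the scaling, since the TMM factor was 0.64 there, against 1.46 and 1.04 in day 10 replicates 1 and 2. It was not recomputed under another scaling. In day 10 replicate 3, Pola2, Tyms and Rfc2 made up 57.0% of the members' counts.

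**Figure D4:**
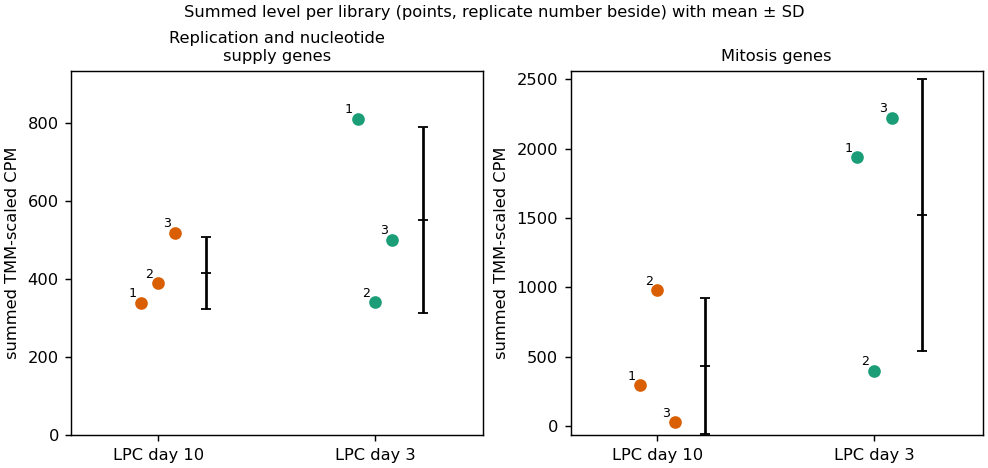
Summed TMM-scaled CPM of the replication and nucleotide supply genes (left) and of the mitosis genes (right) in each library, with replicate numbers beside the points and the mean ± SD of each group (n = 3). The mean is 416 CPM at day 10 and 551 CPM at day 3 for the replication genes, and 433 CPM at day 10 and 1519.9 CPM at day 3 for the mitosis genes, with overlapping points in both panels.

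Other genes of the pathway were read as whole lists. Of all genes tested, 50.1% had a log2 fold change below 0. At an unadjusted p under 0.05 in edgeR, 4.76% of all genes tested were higher at day 10 and 1.38% lower. All day 10 libraries lay below all day 3 libraries for 4.97% of them. Of 25 other replication genes tested, 10 had a log2 fold change above 0 and 15 below, with a median of -0.44 and 0 called by edgeR (3 above 0 and 0 below had an unadjusted p under 0.05). Slbp, which binds the stem-loop of histone mRNA, had 2.72, 12.5 and 545 CPM at day 10, against 12.2, 14.4 and 0.603 CPM at day 3 (log2 fold change 4.36 ± 1.35, SE; edgeR adjusted p = 0.255). Pold4, the smallest polymerase delta subunit, did not overlap between groups and had 1.67, 1.83 and 0 CPM at day 10, against 8.55, 37.9 and 2.53 CPM at day 3 (log2 fold change -3.75 ± 2.02, SE; edgeR adjusted p = 0.877). Of 23 other nucleotide synthesis genes tested, 11 were above 0 and 12 below, with a median of -0.07 and 0 called (2 above 0 and 0 below had an unadjusted p under 0.05). Shmt2, the mitochondrial source of one-carbon units, had 10.8, 2.05 and 203 CPM at day 10, against 7.37, 0.142 and 13 CPM at day 3 (log2 fold change 3.39 ± 1.48, SE; edgeR adjusted p = 0.673). Atic, which catalyses the last steps of purine ring synthesis, had 21.7, 8.72 and 0.538 CPM at day 10, against 47.2, 25.8 and 86.2 CPM at day 3, and its groups did not overlap (log2 fold change -2.36 ± 1.35, SE; edgeR adjusted p = 0.924). Of 24 E2F, RB and S phase cyclin genes tested, 9 were above 0 and 15 below, with a median of -0.38 and 0 called (2 above 0 and 0 below had an unadjusted p under 0.05). Ccnd1, cyclin D1, had 31.9, 9.47 and 482 CPM at day 10, against 18.0, 6.12 and 5.55 CPM at day 3 (log2 fold change 4.14 ± 1.21, SE; edgeR adjusted p = 0.210). Ccna2, the cyclin A of S phase, had 0.837, 17.9 and 2.42 CPM at day 10, against 47.6, 25.2 and 70.8 CPM at day 3, without overlap (log2 fold change -2.76 ± 1.42, SE; edgeR adjusted p = 0.846). Slbp, Shmt2 and Ccnd1 were each highest in day 10 replicate 3, the library in which Pola2 and Tyms were highest. That library was the highest for 25.6% of all genes tested.

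Markers of other cells that a lesion holds varied between the libraries, and their part in the values of the replication genes was not tested. The oligodendrocyte list (6 genes, 5 with a row of counts) summed to 15.6 to 114 CPM at day 10 and 26.6 to 34.3 CPM at day 3, with Cldn11 at 0 in every library. The oligodendrocyte progenitor list summed to 1.88 to 104 CPM at day 10 and 0.996 to 13 CPM at day 3, with 1 or 2 of its 6 genes counted in a library and nearly all of it from Cspg4, with Pdgfra, Olig1, Olig2 and Sox10 at 0. Cspg4 had 104, 33.7 and 1.88 CPM at day 10, against 13, 0.996 and 1.45 CPM at day 3, and its log2 fold change was 3.17 (edgeR unadjusted p = 0.0449, adjusted p = 0.791). Mbp, a myelin protein of the oligodendrocyte list, had 62.3, 41.4 and 13.2 CPM at day 10, against 0.884, 10.2 and 0.241 CPM at day 3, and its log2 fold change was 3.36 (edgeR unadjusted p = 0.0426, adjusted p = 0.774). The list of border-associated macrophages summed to 5.70 to 6.19 CPM at day 10 and 24.3 to 93.2 CPM at day 3, through Mrc1. The endothelial list summed to 2.15 to 80.4 CPM at day 10 and 4.13 to 25.0 CPM at day 3, mostly from Flt1, with Cldn5 at 0. Neutrophil markers summed to at most 0.269 CPM at day 10 and reached 78.8 CPM in day 3 replicate 3. The monocyte list, with Ccr2 first, summed to 0 to 7.10 CPM at day 10 and 0 to 1.38 CPM at day 3. The astrocyte list reached 3.34 CPM at day 10 and 8.11 CPM at day 3, and the neuron list 10.9 CPM at day 10 and 2.13 CPM at day 3. The pericyte list reached 0.646 CPM at day 10 and 5.80 CPM at day 3, and the B cell list 13 CPM at day 10 and 30.4 CPM at day 3. The 1 T cell marker with a row of counts, Lck, was at 0.

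In the authors' deposited table, fold changes run the other way, day 3 over day 10. Of its 46 values for members, 30 were above 0 (65.2%), which is higher at day 3. The share of all its genes above 0 was not computed, so the 65.2% is not read as particular to the members. In the same table, 1 member had a p under 0.05 (2.17%), against 4.08% of its 24984 genes. That member was Rrm2, with a log2 fold change of 3.57 (day 3 over day 10) and p = 0.0204 in the authors' deposited table. The same table gives -3.49 for Pola2, -3.31 for Gins4 and -1.20 for Orc1, each higher at day 10, and 1.94 for Tyms, higher at day 3. It also gives values to genes at 0 in every library, from -0.43 to -0.27, among them Rpa3 at -0.37.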

How the data were processed

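Microglial RNA from 6 lesions, 3 at day 10 and 3 at day 3 after LPC, was measured. Per the labels' protocols, cDNA was made with a NuGEN Ovation kit and sequenced in pairs. The submitters' processing notes name the GRCm38 genome, the aligner STAR 2.5.2a, and limma 3.30.8 and edgeR 3.16.5 under R 3.3.2. No source used here gives the counting program, the annotation or the library strand. The deposited counts are whole numbers per Ensembl gene, 5349 of 24984 at 0 in every library. The deposited FPKM values are named by time point only, per the file headers, so they were used by group. The authors' deposited log2 fold changes and p-values were copied unchanged, and their sign is day 3 over day 10. The authors' normalized table was not used.

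Counts were tested under R 4.3.3 with edgeR 4.0.16 (quasi-likelihood F-test with group as the only term, TMM scaling, and filterByExpr at a minimum count of 10), with Benjamini-Hochberg adjustment over 10535 genes and a threshold of 0.05. The SE was derived as the size of the log2 fold change over the square root of F. The script was tested on simulated counts that varied less than these libraries, so that test does not give its power here. The biological coefficient of variation of these libraries was 1.11. Of the 46 members with counts, 34 were tested. The 12 others (Cdc6, Mcm10, Cdc45, Gins2, Gins3, Pold1, Rpa2, Rpa3, Dut, Chaf1b, Ccne1, E2f1) did not pass the filter on low counts, which a member could pass through 1 group alone. Gene positions, exon lengths and overlaps come from GENCODE M21, and promoters from RefSeq. Alternatives were library-size, RLE and upper-quartile scaling, 2 other filters, DESeq2 1.42.0, limma-voom (limma 3.58.1) with and without sample weights, a replicate block and leaving out libraries.

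The members and gene lists were chosen with earlier results of these data known. Values in every library are printed for the 2 members of highest mean CPM in each role, those with an unadjusted p under 0.05, those that do not overlap between groups and the 3 of largest positive change, and for the gene of smallest p each way in the further lists (Ube2c by its fold change only). Mki67, the hexamer subunits and other values outside that rule were chosen after they were seen. Each library is taken as 1 mouse, as the design text gives 3 mice per time point. Some cell type markers of the design are not reported here, and the sums leave them out.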

Additional observations from a re-analysis of the deposited data

How the results depend on the processing

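The numbers of genes and members called and the members' median and log2 fold changes were recomputed under 16 alternatives. Leaving out day 3 replicate 1 together with day 10 replicate 3 was added after seeing the data, as were all alternatives for the mitosis genes. Rfc3 was not tested without day 3 replicate 1. The count of members whose groups do not overlap, which rests on levels alone, was recomputed for the scalings, filters and left-out libraries. Summed levels, ratios per kilobase and FPKM ranks were not recomputed. The number of members called was 0 under each of the 16, and the lowest adjusted p of any member was 0.116 (Rrm2, DESeq2). Members to which DESeq2 gave no adjusted p could not be called by it. Of the 34 members, 13 kept the sign of their log2 fold change under all of them, but with libraries left out the size moved by over 1.5 times for all of these except Rrm2 and Rpa1. Their ranges were -5.13 to -2.87 for Rrm2, -4.95 to -2.24 for Mcm5, -3.90 to -2.12 for Rpa1, -7.20 to -1.02 for Brca1, 0.46 to 2.15 for Orc1 and 2.04 to 5.87 for Gins4. They were -2.30 to -1.0 for Prim1, -2.31 to -0.11 for Pole, -3.66 to -0.93 for Pole2, 1.23 to 4.46 for Rfc5, -1.85 to -0.44 for Lig1, -7.64 to -1.32 for Chaf1a and -5.46 to -1.76 for Uhrf1. The median of the members kept its sign outside the settings that leave out libraries, where it ran from -1.33 to 0.32. It was 0.32 without day 3 replicate 1 and 0.19 without that library and day 10 replicate 3. The count of members whose groups do not overlap ran from 2 to 13 with libraries left out, where fewer libraries are compared. The 13 came without day 3 replicate 1 and day 10 replicate 3. Of 35 members tested there, 10 lay above (28.6%, against 21.2% of all genes) and 3 below (8.57%, against 15.0%). The 2 came without day 3 replicate 3 and lay above (5.71%, against 6.44% of all genes).

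Over all genes, the count called higher at day 10 was 0 with RLE scaling, library-size scaling, limma-voom and the replicate block, 2 with weighted limma-voom, 20 with a filter of 1 CPM in 3 libraries, 45 with DESeq2 and 113 with no filter. The count called lower was 1 with that CPM filter and with limma-voom with and without weights, 5 with no filter and 18 with DESeq2. With libraries left out, 1 to 208 genes were called higher and 0 to 4 lower. The cause of these shifts was not tested. The mitosis genes kept a median below 0 under all 16 alternatives, from -3.51 to -0.93.

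Log2 fold changes that turned sign were as follows. RLE scaling and DESeq2 both gave 0.19 for Mcm7 and 0.08 for Rfc1, and upper-quartile scaling gave -0.37 for Tyms. Library-size scaling gave 0.20 for Gins1, -0.54 for Tyms and -0.10 for Ccne2. With limma-voom, Cdt1 was at 1.34, Mcm4 at 1.5, Mcm6 at 0.01, Pola1 at 0.82, Prim2 at -0.03, Pold2 at 1.17, Rfc1 at 0.46, Tyms at -2.15 and Tk1 at -1.74. With sample weights, Cdt1 was at 1.51, Mcm4 at 1.97, Mcm6 at 0.48, Pola1 at 0.92, Pold2 at 1.68, Pcna at 0.01, Rfc1 at 0.31, Rfc2 at -0.72, Rfc4 at 0.14, Tyms at -3.02 and Tk1 at -0.48.

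With the replicate block, Cdt1 was at 1.08, Mcm4 at 1.76, Pola1 at 0.00, Prim2 at -1.06, Pold2 at 0.82, Pcna at 0.04, Rfc1 at 0.41, Tyms at -1.74 and Tk1 at -0.88. The block took the count of genes called higher to 0. The replicate numbers are not stated to pair the mice. Deviations from the group means correlated at 0.073, -0.035 and 0.007 over genes between same-numbered libraries. With 3 libraries per group, these values cannot decide whether same-numbered libraries shared a batch.

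With libraries left out, the range was -0.68 to 0.54 for Pcna, -1.99 to 0.87 for Tk1, -2.21 to 0.68 for Mcm7, -3.15 to 0.34 for Gins1, -1.50 to 2.77 for Prim2 and -1.08 to 3.87 for Ccne2. It was -1.65 to 5.25 for Cdt1, -1.85 to 2.47 for Pola1, -1.75 to 5.11 for Pold2, -0.33 to 1.59 for Rfc2, -3.46 to 0.62 for Tyms and -3.59 to 0.92 for Orc6. It was -2.34 to 4.43 for Mcm4, -1.15 to 2.19 for Mcm6, -3.41 to 1.06 for Rfc4, -4.48 to 1.31 for Rrm1, -0.63 to 0.95 for Rfc1 and -1.35 to 0.12 for Mcm3. It was -3.36 to 0.19 for Mcm2, -0.01 to 7.29 for Pola2 and -5.07 to 1.14 for Rfc3. In day 10 replicate 3, where 3 counts stand for 0.807 CPM, members below that level were not detectable. That floor reflects the TMM factor of 0.64 as well as the depth.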
